A study of Mus musculus with 9 samples.

Results

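The chemokines, interleukins and colony-stimulating factors of Lewis lung carcinoma (LLC) cells were described in 3 lines: wild type (WT) and the CD47 knockout clones KO E3 and KO E5. Members were the protein-coding genes whose symbols begin with Ccl, Cxcl or Il and go on with a number and at most 1 letter (no letter after Cxcl), together with Cx3cl1, Csf1, Csf2, Csf3, Lif, Tnf, Mif, Spp1 and Tslp. This choice gave 89 of the 50813 genes listed. The rule uses symbols and not measured values, but it was set with earlier results of these data known. It took in 85 ligands and, through the pattern of letters, the 4 receptors Il7r, Il9r, Il21r and Il23r. LLC is a mouse lung carcinoma line, here carrying luciferase, and all 3 lines were grown in culture in DMEM with fetal bovine serum. CD47 is a surface protein that binds SIRPα on phagocytes, and the knockout lines were made with CRISPR so that the C-terminal part of the protein was lost. Polyadenylated RNA was sequenced from 3 libraries of each line. The knockout was represented by 2 clones and WT by 1 line. In each comparison of a clone with WT, the edit and other differences between those lines cannot be told apart. The study's methods call the 3 libraries of a line independent biological replicates. The p-values thus measure the spread between replicates within lines, estimated over all 3 lines in 1 model.

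Chemokines are small secreted proteins that direct the migration of leukocytes through G protein-coupled receptors, and are classed as CC, CXC or CX3C by the spacing of their first cysteines. Interleukins and colony-stimulating factors signal mainly through cytokine receptors that act by JAK kinases and STAT proteins, whereas the IL-1 family signals through MyD88 towards NF-κB. Tumour cells release many of these ligands themselves, and macrophages and neutrophils are among the cells that respond to them. Transcription of several members is driven by NF-κB, AP-1 and C/EBP factors.

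The libraries held 44257404 to 55095219 counts. Cd47 lay between 179 and 187 CPM (counts scaled to library size) in the WT libraries, between 36.7 and 49.6 in KO E3 and between 15.5 and 18.6 in KO E5, so every library fell in the order of its label. Of 17 leukocyte markers, 13 had at most 3 counts in every library and 8 had none, among them Cd3e, Ms4a1 and S100a8. Ptprc and Adgre1, which define leukocytes and macrophages, had at most 2 counts. The summed level of the list was 14.5 to 15.4 CPM in WT, 12.6 to 17.1 in KO E3 and 23.6 to 24.9 in KO E5, and came mostly from Cd14. Endothelial markers summed to at most 0.48 CPM. Among 10 lung epithelial markers, Epcam, Nkx2-1, Scgb1a1, Sftpb and Sftpc were at 0 throughout, and the sum, which came from Krt8 and Krt18, was 451 to 459 CPM in WT, 128 to 199 in KO E3 and 897 to 958 in KO E5. The sum of 10 fibroblast and mesenchymal markers was 6871 to 7259 CPM in WT, 8757 to 9886 in KO E3 and 9173 to 10200 in KO E5, and came mostly from Vim and Col3a1. Of its 9 tested genes, 2 were called higher and 1 lower in KO E3 and 0 higher and 5 lower in KO E5 (Acta2, Col1a1, Dcn, Lum and Pdgfrb), with a median log2 fold change of 0.97 in KO E3 and -1.45 in KO E5. The part of these shifts in the results given here was not tested. KO E3 replicate 3 stood farthest from the other libraries of its line.

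Most of the family was silent in these cells. No count was found for 33 members in any library, and another 20 never exceeded 3 counts. The silent genes included the inflammatory cytokines Tnf, Il1a, Il1b and Il6, the T cell cytokines Il2, Il4, Il10, Il13 and Il17a, the myeloid growth factor Csf2, and the CXCR3 ligands Cxcl9 and Cxcl11. At these depths 3 counts correspond to about 0.0622 CPM in WT, 0.0631 in KO E3 and 0.0617 in KO E5, so lower levels were not detectable. After the filter on low counts 20 members, all of them ligands, were tested among 14593 genes, and 69 were not. A gene that passed the filter only through the lines in which it was high had to differ from the others, which bears on Il15, Ccl9, Il16 and Ccl27a, all at few counts in at least 1 line. In a fit of WT and KO E5 alone Il16 and Ccl27a were not tested, and 4 members were called in place of 6.

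Osteopontin and MIF dominated the output in all 3 lines. Spp1, which encodes the secreted matrix phosphoprotein osteopontin, made up 76.8% of the summed CPM of all members in WT, 71.5% in KO E3 and 69.7% in KO E5. The members together summed to 2732, 1669 and 2120 CPM in these lines. Per kilobase of the canonical transcript, the WT order of levels was Spp1 at 941 ± 114, Mif at 550 ± 23.3, Ccl2 at 50.04 ± 12.5 and Csf1 at 46.9 ± 3.33 CPM (SD, n = 3), where the last pair did not differ beyond their spread. The same 4 genes led in KO E3, at 535 ± 115, 369 ± 96.4, 64.3 ± 18.1 and 32.7 ± 6.02 CPM per kilobase. In KO E5 they stood at 663 ± 58.7, 569 ± 41.5, 67.1 ± 19.5 and 41.9 ± 2.28 CPM per kilobase. Every other tested member was below 9 CPM per kilobase. A mean of at least 1 CPM was reached by 15 members in WT, 15 in KO E3 and 12 in KO E5.

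**Figure D1:**
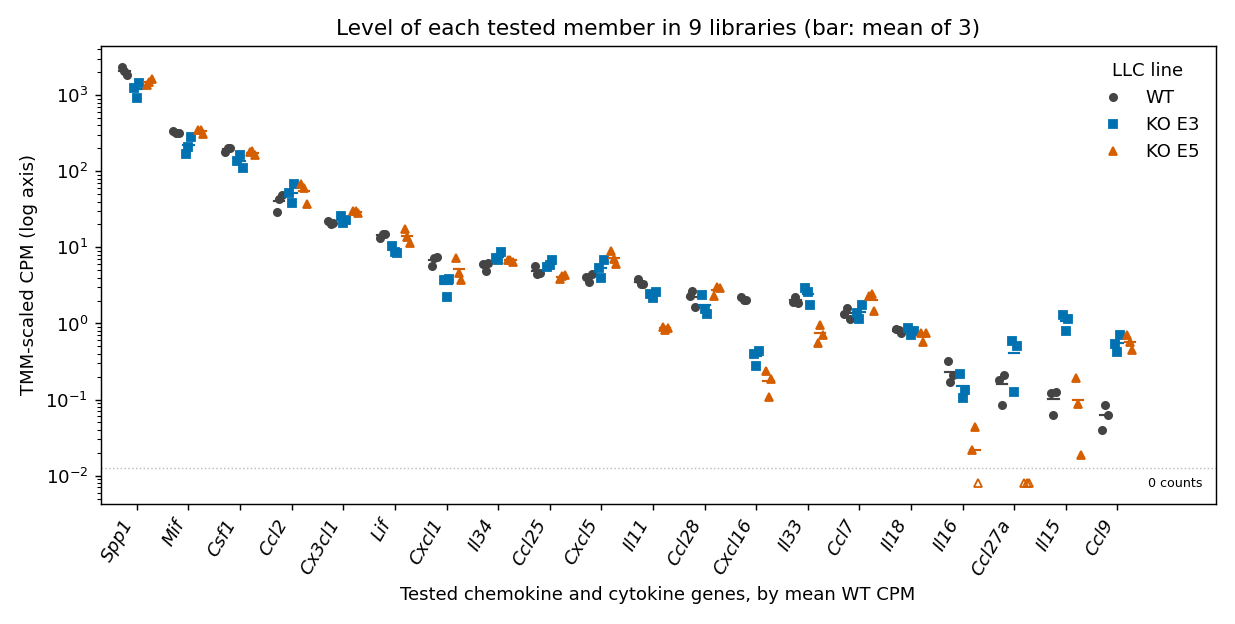
CPM, on a log axis, of the tested members in each of the 9 libraries, with 1 point per library, colours and shapes for WT, KO E3 and KO E5, bars at the mean of 3 libraries and open points for libraries at 0. Spp1 and Mif stand highest in all 3 lines, all 3 lines lie apart for Cxcl16 and Il11, and both clones lie above WT for Ccl9.

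In KO E3 against WT, edgeR's quasi-likelihood test called 4 of the 20 tested members, where called means a Benjamini-Hochberg adjusted p under 0.05 and more than a 2-fold change. Il15 and Ccl9 rose, and Cxcl16 and Cxcl1 fell. In bulk RNA, fewer cells that express a gene and less RNA per cell cannot be told apart. Over all genes tested 9.82% were called (5.43% higher and 4.39% lower). At an adjusted p alone 9 members passed, 2 higher and 7 lower, beside 30.5% of all genes. The 7 lower ones were Cxcl16, Cxcl1, Spp1, Lif, Mif, Il11 and Csf1. The libraries of both lines did not overlap for 10 members, beside 45.4% of all genes. The members' median log2 fold change was 0.01 and that of all tested genes 0.01.

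In KO E5 against WT, 6 of the 20 tested members were called, beside 8.21% of all genes (2.69% higher and 5.52% lower). Ccl9 rose, and Cxcl16, Il11, Il33, Il16 and Ccl27a fell. At an adjusted p alone 8 members passed, with Cx3cl1 and Cxcl5 added on the higher side, beside 20.6% of all genes. The libraries did not overlap for 12 members, 4 higher and 8 lower, beside 55.4% of all genes. The median log2 fold change of the members was -0.13 and that of all tested genes 0.00. Both comparisons use the same 3 WT libraries, so their values are given side by side and no agreement between them is drawn.

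KO E5 was also tested directly against KO E3. Of the 20 members 6 were called, all lower in KO E5, beside 11.0% of all genes (3.49% higher and 7.52% lower). They were Il15, Il33, Il11, Cxcl16, Il16 and Ccl27a. At an adjusted p alone 10 passed, 3 higher and 7 lower, beside 31.9% of all genes. The higher ones were Lif, Mif and Cx3cl1. The libraries of the clones did not overlap for 12 members, beside 44.6% of all genes, and the median log2 fold change was 0.05 beside -0.01 for all tested genes. Without KO E3 replicate 1 the calls between the clones numbered 3, and in a fit of the 2 clones alone also 3. Without KO E3 replicate 3, which stood apart, 4, 6 and 5 members were called in KO E3 against WT, KO E5 against WT and KO E5 against KO E3.

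**Figure D2:**
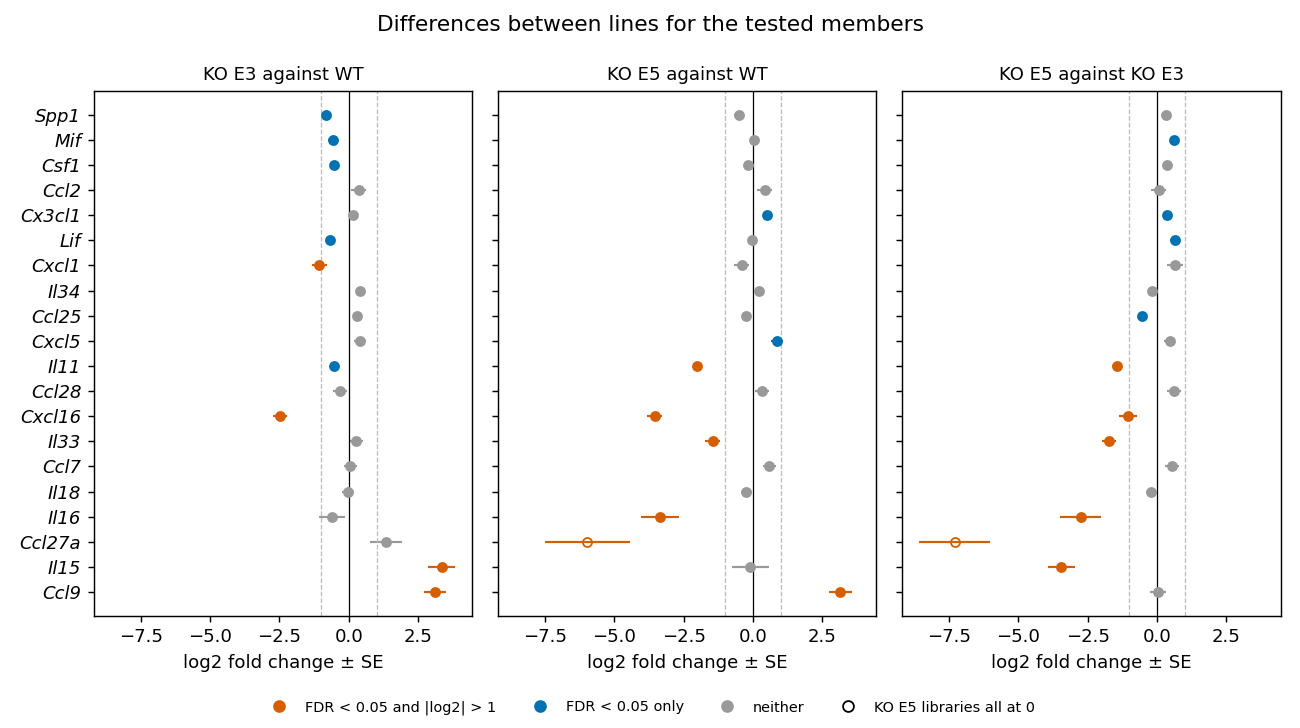
Log2 fold change of each tested member with its standard error for KO E3 against WT, KO E5 against WT and KO E5 against KO E3, with orange points where the adjusted p was under 0.05 and the change exceeded 2-fold, blue points where the adjusted p alone passed and grey points for neither. Dashed lines mark 2-fold, and the 3 panels share 1 horizontal axis, on which the fitted values of Ccl27a reach -7.30 because its KO E5 libraries were at 0.

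Of the 3 CXC chemokines tested, Cxcl16 was called lower in both clones. It encodes a membrane-bound chemokine that is shed as the ligand of CXCR6, and the files list it as ENSMUSG00000018920.12 at chr11:70344809-70350810 on the minus strand of GRCm39. Its levels were 2.20, 2.06 and 2.01 CPM in WT, 0.400, 0.275 and 0.440 in KO E3, and 0.237, 0.108 and 0.185 in KO E5. The 3 lines did not overlap, with KO E5 lowest. The log2 fold change was -2.49 ± 0.25 (SE) in KO E3 (adjusted p = 8.86e-05) and -3.54 ± 0.28 in KO E5 (adjusted p = 1.29e-05). The clones differed by -1.06 ± 0.33 on the log2 scale (adjusted p = 0.0319), a call that was lost in a fit of the clones alone (adjusted p = 0.0868) and without any single library other than KO E3 replicate 2 or KO E5 replicate 1 (adjusted p 0.0503 to 0.113). The KO E5 counts behind it were 11, 5 and 10. Med11 and Zmynd15 have exons on the opposite strand within this locus, and whether reads were counted by strand is not given in the sources used here.

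Cxcl1 and its neighbours on chromosome 5 recruit neutrophils through CXCR2. Cxcl1 (ENSMUSG00000029380.12, chr5:91039100-91040974, plus strand) was at 5.67, 7.30 and 7.51 CPM in WT, 3.78, 2.20 and 3.87 in KO E3, and 7.22, 4.60 and 3.68 in KO E5. The KO E3 libraries lay below all WT libraries, whereas the KO E5 libraries overlapped both other lines. It fell by 1.06 ± 0.28 on the log2 scale in KO E3 (adjusted p = 0.0159), and its log2 fold change in KO E5 was -0.40 ± 0.27 (adjusted p = 0.336). Without KO E3 replicate 2 the KO E3 value was -0.84, and without WT replicate 2 or 3 the adjusted p was 0.0536 or 0.0569. Cxcl5, in the same cluster, was at 4.13, 3.47 and 4.47 CPM in WT, 5.34, 3.93 and 6.84 in KO E3, and 8.86, 7.07 and 6.07 in KO E5. All KO E5 libraries exceeded all WT libraries. Its rise in KO E5 was 0.86 ± 0.22 on the log2 scale (adjusted p = 0.0173), short of 2-fold, with adjusted p of 0.0557, 0.0804 and 0.0787 without WT replicate 1, WT replicate 2 or KO E5 replicate 1. Its log2 fold change in KO E3 was 0.42 ± 0.22 (adjusted p = 0.177).

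The CXCR2 ligands Cxcl2 and Cxcl3 stood too low for the filter. Cxcl2 had 5, 7 and 7 counts in WT, none in KO E3, and 1, 1 and 0 in KO E5. Against a floor of 3 counts per library it was at least 2.09-fold lower in KO E3 than in WT. WT exceeded KO E5 9.62-fold for Cxcl2, with a 95% counting interval of 2.32 to 85.1 (exact binomial, which covers counting error only). Cxcl3 had 10, 9 and 8 counts in WT, 2, 2 and 3 in KO E3, and 2, 4 and 0 in KO E5, with WT above both clones in every library. The cluster from Cxcl5 to Cxcl2 spans 146561 bases at chr5:90907237-91053797 and holds 5 members, 2 of them tested.

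The start regions of Cxcl1 and Cxcl2 are shown because these neighbours carry the same NF-κB site. The sequences are from RefSeq's promoter windows of 250 bases before to 50 after the start, taken from a table on GRCm38.p6 and matched letter for letter to GRCm39 on the plus strand at chr5:91038854-91039153 for Cxcl1 and chr5:91051508-91051807 for Cxcl2. Capitals mark the overlapping matches to the NF-κB site, at bases 180 to 190 for Cxcl1 and 154 to 164 for Cxcl2, counted from 1 at the 5′ end.
Cxcl1: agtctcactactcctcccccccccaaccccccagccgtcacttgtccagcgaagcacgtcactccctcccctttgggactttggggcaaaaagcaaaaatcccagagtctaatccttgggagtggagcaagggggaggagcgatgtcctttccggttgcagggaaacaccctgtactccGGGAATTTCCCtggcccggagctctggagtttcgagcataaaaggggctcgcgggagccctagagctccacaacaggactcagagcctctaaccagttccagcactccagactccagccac
Cxcl2: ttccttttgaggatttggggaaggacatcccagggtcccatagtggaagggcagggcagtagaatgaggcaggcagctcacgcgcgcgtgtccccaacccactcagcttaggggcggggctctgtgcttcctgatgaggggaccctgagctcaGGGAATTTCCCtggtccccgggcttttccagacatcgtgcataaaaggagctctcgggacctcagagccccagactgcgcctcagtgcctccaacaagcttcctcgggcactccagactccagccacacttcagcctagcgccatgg
The site reads GGGAATTTCC from the first base of its match in both windows. Of all 32851 promoter windows in the table, 4.51% hold a match to the NF-κB site on either strand. Of the 14 tested members with a window, 5 held one in at least 1 of their windows. The share counts windows and the number of members counts genes, so they are unlike measures. A match describes the letters alone.

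The chemokines Cxcl12, Cxcl10 and Cxcl15 were close to the limit of detection. Cxcl12, the ligand of CXCR4 and ACKR3 that retains haematopoietic cells in the marrow, had 6, 8 and 5 counts in WT and none in any knockout library. It was at least 2.08-fold lower in KO E3 and at least 2.13-fold lower in KO E5. Without the filter edgeR called it in both clones, with adjusted p of 0.00776 and 0.0104. Cxcl10, an interferon-induced CXCR3 ligand, had 3, 7 and 8 counts in WT, 20, 6 and 13 in KO E3, and 7, 3 and 4 in KO E5, and the lines overlapped. Cxcl15 had 4, 9 and 2 counts in WT and 0 to 5 in the knockout libraries.

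**Figure D3:**
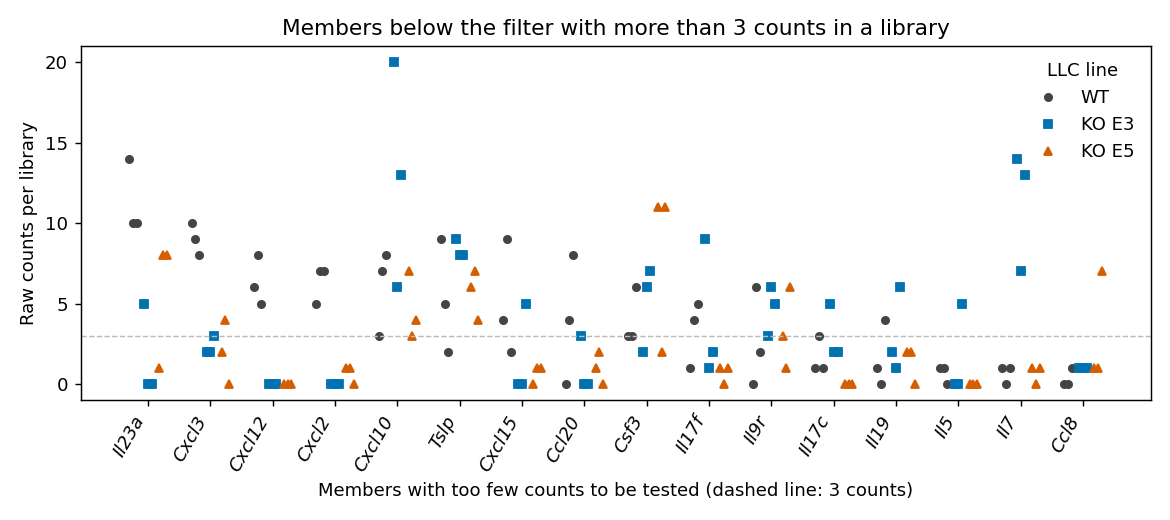
Raw counts per library of members with few reads, below the filter and above 3 counts in at least 1 library, with 1 point for each of the 9 libraries and a dashed line at 3 counts. Cxcl12 is at 0 in all 6 knockout libraries, Il7 is highest in the KO E3 libraries, and Cxcl3 is highest in WT.

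Among the CC chemokines, Ccl9 rose in both clones from a WT level near the limit of detection. It encodes a CCR1 ligand that attracts myeloid cells (ENSMUSG00000019122.9, chr11:83463745-83469462, minus strand). The counts were 2, 4 and 3 in WT, 27, 20 and 32 in KO E3, and 33, 26 and 24 in KO E5. All 6 knockout libraries were above all WT libraries, and the clones overlapped each other. The log2 fold change was 3.10 ± 0.41 in KO E3 (adjusted p = 0.000386) and 3.14 ± 0.41 in KO E5 (adjusted p = 0.000369). The log2 difference between the clones was 0.04 ± 0.29 (adjusted p = 0.931), and a p of this size does not show that they were alike. Ccl9 remained below 1 CPM in every library, at 0.555 ± 0.141 in KO E3 and 0.573 ± 0.134 in KO E5 (SD, n = 3). The other 4 members of its cluster, at chr11:83416604-83555509, were not tested.

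The Ccl9 window is shown because the gene rose in both clones. It lies at chr11:83469413-83469712 of GRCm39 and is printed 5′ to 3′ on the minus strand, with capitals at a TATAAA match (bases 159 to 164), an AP-1 match to TGANTCA (198 to 204) and an NF-κB match (216 to 225).
Ccl9: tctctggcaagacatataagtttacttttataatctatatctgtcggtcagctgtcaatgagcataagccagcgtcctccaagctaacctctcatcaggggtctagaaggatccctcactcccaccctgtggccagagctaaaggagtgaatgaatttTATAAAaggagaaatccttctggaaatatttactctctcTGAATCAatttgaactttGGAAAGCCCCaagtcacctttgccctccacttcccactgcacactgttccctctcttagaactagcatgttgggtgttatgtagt
Of all windows, 8.32% hold TATAAA on the sense strand and 7.81% hold TGANTCA on either strand, beside 5 and 6 of the 14 tested members with a window. The cAMP response element TGACGTCA was in 1.79% of all windows and in 1 of the 14. Here too the shares count windows and the numbers of members count genes.

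Ccl2 and Ccl7, which recruit monocytes through CCR2 and lie together on chromosome 11 in a cluster of 5 members, did not pass in any comparison. Ccl2 (ENSMUSG00000035385.6, chr11:81926397-81928279) was at 29.3, 43.9 and 48.9 CPM in WT, 51.4, 38.0 and 67.5 in KO E3, and 67.4, 59.4 and 36.8 in KO E5. The lines overlapped, and the spread within each was large. Its log2 fold changes were 0.36 ± 0.27 in KO E3 (adjusted p = 0.341) and 0.42 ± 0.27 in KO E5 (adjusted p = 0.312). Ccl7 was at 1.35 ± 0.219 CPM in WT, 1.41 ± 0.301 in KO E3 and 2.05 ± 0.499 in KO E5 (SD, n = 3), with log2 fold changes of 0.06 ± 0.25 and 0.59 ± 0.24.

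The homeostatic chemokines of gut and skin gave small or low-count differences. Ccl25, the ligand of CCR9, was at 5.69, 4.46 and 4.56 CPM in WT, 5.50, 5.92 and 6.88 in KO E3, and 3.81, 4.25 and 4.36 in KO E5. KO E5 differed from KO E3 by -0.56 ± 0.15 on the log2 scale (adjusted p = 0.0159, or 0.0585 without KO E5 replicate 1), and neither clone passed against WT. Elavl1 has exons on the opposite strand there. Ccl28, a mucosal ligand of CCR10, was at 2.20 ± 0.524, 1.77 ± 0.558 and 2.73 ± 0.374 CPM in WT, KO E3 and KO E5 and passed nowhere. Ccl27a, the keratinocyte ligand of CCR10, had 9, 4 and 10 counts in WT, 29, 6 and 23 in KO E3, and none in KO E5. It was at least 2.57-fold lower in KO E5 than in WT and at least 6.55-fold lower than in KO E3. Its call against WT (adjusted p = 0.026) was lost without WT replicate 1, WT replicate 3 or any 1 of the KO E5 libraries, with adjusted p of 0.0621 to 0.0714. Ccl27a has the near-identical copy Ccl27b and overlaps Il11ra1 on the opposite strand, so its counts are uncertain.

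Cx3cl1, or fractalkine, is a chemokine on a membrane-bound stalk whose receptor CX3CR1 is found on monocytes and microglia. It was at 21.9, 20.2 and 20.9 CPM in WT, 25.8, 20.7 and 22.9 in KO E3, and 30.3, 29.9 and 28.4 in KO E5. All KO E5 libraries exceeded the others, whereas KO E3 overlapped WT. It rose by 0.49 ± 0.10 on the log2 scale in KO E5 against WT (adjusted p = 0.00715) and by 0.35 ± 0.10 against KO E3 (adjusted p = 0.0239), both short of 2-fold. The second of these did not pass with upper-quartile scaling (adjusted p = 0.0981), with no filter (0.0551), in a fit of the clones alone (0.08) or without KO E3 replicate 2, KO E5 replicate 1 or KO E5 replicate 2 (0.0599, 0.076 and 0.0808). The log2 fold change in KO E3 against WT was 0.14 ± 0.10 (adjusted p = 0.344).

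The IL-6 family was represented by Il11 and Lif, ligands that signal through gp130. Il11 (ENSMUSG00000004371.16, chr7:4775372-4785858, minus strand) was at 3.81, 3.34 and 3.27 CPM in WT, 2.42, 2.16 and 2.57 in KO E3, and 0.905, 0.824 and 0.869 in KO E5. The ranges of the 3 lines were apart, in the order WT, KO E3 and KO E5. Il11 fell by 2.00 ± 0.16 on the log2 scale in KO E5 (adjusted p = 1.39e-05) and in KO E3 by 0.54 ± 0.15 (adjusted p = 0.0188), which is short of 2-fold. The clones differed by -1.46 ± 0.16 on the log2 scale (adjusted p = 0.000101). Without WT replicate 1 or 2 the KO E3 adjusted p was 0.0778 or 0.0541, and it was 0.0542 with upper-quartile scaling and 0.0503 in a fit of the 2 lines alone.

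The Il11 window is shown because the transcript fell in both clones and the window holds an AP-1 match. It lies at chr7:4781091-4781390 of GRCm39, printed 5′ to 3′ on the minus strand, with capitals at TGAGTCA (bases 153 to 159), a form of TGANTCA.
Il11: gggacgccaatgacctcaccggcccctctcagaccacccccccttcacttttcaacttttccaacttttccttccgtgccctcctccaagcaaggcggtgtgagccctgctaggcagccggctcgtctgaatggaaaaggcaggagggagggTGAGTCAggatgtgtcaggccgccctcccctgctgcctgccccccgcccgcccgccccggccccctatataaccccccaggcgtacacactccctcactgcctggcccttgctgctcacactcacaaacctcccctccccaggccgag

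Lif, the leukaemia inhibitory factor, was lower in KO E3 than in each of the other lines. Its levels were 13.4, 15.2 and 14.8 CPM in WT, 10.3, 8.60 and 8.49 in KO E3, and 17.5, 13.9 and 11.3 in KO E5. All KO E3 libraries lay below every library of the other lines, and KO E5 overlapped WT. The log2 fold change was -0.66 ± 0.16 in KO E3 (adjusted p = 0.0105) and -0.02 ± 0.16 in KO E5 (adjusted p = 0.936). KO E5 exceeded KO E3 by 0.64 ± 0.16 on the log2 scale (adjusted p = 0.0121). Il6 was among the silent genes.

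In the IL-1 family, Il33 fell in KO E5 and Il18 passed nowhere. Il33 encodes a nuclear alarmin that, once released, acts on innate lymphoid cells and mast cells through ST2 (ENSMUSG00000024810.17, chr19:29902514-29938118, plus strand). Its levels were 1.94, 2.25 and 1.88 CPM in WT, 2.94, 2.62 and 1.74 in KO E3, and 0.560, 0.954 and 0.703 in KO E5. The KO E5 libraries lay below all others, and KO E3 overlapped WT. It fell by 1.45 ± 0.26 on the log2 scale in KO E5 against WT (adjusted p = 0.00282) and by 1.72 ± 0.26 against KO E3 (adjusted p = 0.00067). In KO E3 against WT the log2 fold change was 0.27 ± 0.24 (adjusted p = 0.428). Il18, which drives interferon-γ release by lymphocytes, was at 0.807 ± 0.0423 CPM in WT, 0.789 ± 0.0912 in KO E3 and 0.686 ± 0.106 in KO E5 (SD, n = 3).

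The common γ chain cytokines Il15 and Il7 had their highest counts in KO E3. Il15 supports NK cells and memory CD8 T cells (ENSMUSG00000031712.11, chr8:83058261-83129851, minus strand). It had 6, 3 and 6 counts in WT, 64, 38 and 52 in KO E3, and 9, 4 and 1 in KO E5, which is 1.08 ± 0.245 CPM in KO E3 and 0.103 ± 0.035 in WT. All KO E3 libraries stood above all others, and KO E5 overlapped WT. It rose in KO E3 by 3.35 ± 0.48 on the log2 scale (adjusted p = 0.000631) and KO E5 differed from KO E3 by -3.45 ± 0.49 (adjusted p = 0.00047). KO E5 against WT gave a log2 fold change of -0.10 ± 0.66 (adjusted p = 0.938). The locus overlaps the antisense transcript 9530004M14Rik. Il7, a growth factor of lymphocyte precursors, was not tested and had 1, 0 and 1 counts in WT, 14, 7 and 13 in KO E3, and 1, 0 and 1 in KO E5. KO E3 exceeded WT 17.2-fold, with a 95% counting interval of 4.42 to 148. Without the filter edgeR called it in KO E3 against WT (adjusted p = 0.00189) and in KO E5 against KO E3 (adjusted p = 0.0016).

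Il16 and Il34 stand outside these families. Il16, a CD4 ligand cut from a larger precursor, had 16, 8 and 10 counts in WT, 11, 5 and 6 in KO E3, and 1, 2 and 0 in KO E5. The KO E5 libraries were below all others. Il16 passed in KO E5 against WT (adjusted p = 0.00604) and against KO E3 (adjusted p = 0.0162). WT exceeded KO E5 11.5-fold with a 95% counting interval of 3.61 to 58.4, and KO E3 exceeded it 7.53-fold with an interval of 2.26 to 39.3. Without KO E5 replicate 3 the second call was lost (adjusted p = 0.057). Il34, which shares the receptor CSF1R with CSF1, was at 6.11, 4.86 and 6.23 CPM in WT, 7.22, 6.89 and 8.64 in KO E3, and 6.83, 6.88 and 6.47 in KO E5. All knockout libraries exceeded all WT libraries, with log2 fold changes of 0.40 ± 0.14 in KO E3 (adjusted p = 0.0507) and 0.23 ± 0.14 in KO E5 (adjusted p = 0.286), neither past the threshold.

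Csf1, the growth factor of macrophages, was the only colony-stimulating factor tested under that name. It was at 181, 205 and 205 CPM in WT, 138, 162 and 112 in KO E3, and 180, 183 and 165 in KO E5 (ENSMUSG00000014599.11, chr3:107648364-107667785). Every KO E3 library was below every other library. It fell by 0.52 ± 0.13 on the log2 scale in KO E3 (adjusted p = 0.0137), and the KO E5 value was -0.16 ± 0.13 (adjusted p = 0.437). Without WT replicate 2 or 3 the KO E3 adjusted p was 0.0587 or 0.0575. The clones differed by 0.36 ± 0.13 on the log2 scale (adjusted p = 0.062). Csf3, the growth factor of granulocytes, had 2 to 11 counts per library over all lines, and Csf2 never exceeded 3.

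Spp1 and Mif, the most abundant members, fell in KO E3 at an adjusted p under 0.05 without a 2-fold change. Spp1 (ENSMUSG00000029304.15, chr5:104582984-104588916) was at 2364, 2073 and 1856 CPM in WT, 1230, 920 and 1429 in KO E3, and 1346, 1476 and 1608 in KO E5. All knockout libraries lay below all WT libraries. Its log2 fold change was -0.81 ± 0.16 in KO E3 (adjusted p = 0.00403) and -0.51 ± 0.16 in KO E5 (adjusted p = 0.0507), and over the alternatives the KO E5 adjusted p ran from 0.00189 to 0.172, under 0.05 in 6 of 16. Mif (ENSMUSG00000033307.8, chr10:75695187-75696074), which binds CD74, was at 342, 316 and 320 CPM in WT, 167, 210 and 280 in KO E3, and 351, 351 and 308 in KO E5. The KO E3 libraries lay below all others and were widely spread. The log2 fold change was -0.58 ± 0.16 in KO E3 (adjusted p = 0.0223) and 0.05 ± 0.16 in KO E5 (adjusted p = 0.875), and KO E5 exceeded KO E3 by 0.62 ± 0.16 (adjusted p = 0.0147). The KO E3 value did not pass with upper-quartile scaling (adjusted p = 0.0648) or in a fit of the 2 lines alone (adjusted p = 0.0687), nor without any 1 of the WT libraries or KO E3 replicate 1 (adjusted p 0.0505 to 0.0704), and the difference between the clones not without KO E5 replicate 2 (adjusted p = 0.0523). Mif has processed pseudogenes, so part of its counts may be shared with them.

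The other untested members stood at a few counts. Il23a, a subunit of IL-23, had 14, 10 and 10 counts in WT, 5, 0 and 0 in KO E3, and 1, 8 and 8 in KO E5, with WT above both clones in every library. Without the filter it was called in KO E3 (adjusted p = 0.0231). Tslp, an epithelial cytokine, had 2 to 9 counts in every library. Ccl20 summed to 12 counts in WT, 3 in KO E3 and 3 in KO E5. Il17c was called lower in KO E5 than in KO E3 without the filter (adjusted p = 0.0479), from 5, 2 and 2 counts against none. Ccl8, Il5, Il17f, Il19 and the receptor Il9r reached at most 9 counts.

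Genes that receive or control these ligands were taken from lists of receptors, related ligands, inhibitors and transcriptional regulators. Of 117 listed genes 74 were tested. In KO E3 against WT, 9 were called (4 higher and 5 lower), in KO E5 against WT 17 (5 and 12), and in KO E5 against KO E3 16 (4 and 12). All genes tested were called at 9.82%, 8.21% and 11.0% in these comparisons. The median log2 fold changes of the lists were 0.05, -0.09 and -0.07, beside 0.01, 0.00 and -0.01 over all genes tested. Without WT replicate 1 the KO E5 count against WT was 11.

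Few chemokine receptors were transcribed. Only 2 of 23 passed the filter, and the scavenging CXCL12 receptor Ackr3 rose in KO E5, from 1.68 ± 0.291 CPM in WT to 4.13 ± 1.36 (SD, n = 3), by 1.29 ± 0.26 on the log2 scale (adjusted p = 0.00561). Of 30 cytokine receptors 22 were tested, and 3 rose and 1 fell in KO E3, whereas 3 rose and 5 fell in KO E5. Il1rl1, which encodes the IL-33 receptor ST2, was at 63.9 ± 5.24 CPM in WT, 99.7 ± 13.1 in KO E3 and 161 ± 4.54 in KO E5. It rose in KO E5 by 1.34 ± 0.12 on the log2 scale (adjusted p = 2.35e-05) and in KO E3 by 0.64 ± 0.11 (adjusted p = 0.00209), the latter short of 2-fold, while its ligand Il33 fell in KO E5. The IL-4 receptor gene Il4ra rose in KO E5 by 1.26 ± 0.10 on the log2 scale (adjusted p = 1.1e-05) and in KO E3 by 0.60 ± 0.10 (adjusted p = 0.00133), the latter short of 2-fold. Its partner Il13ra1 rose in KO E3 by 1.07 ± 0.25 on the log2 scale (adjusted p = 0.013), but had no count in KO E5 and was at least 11.4-fold lower there than in WT.

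The other cytokine receptor genes called in at least 1 comparison included Itgb3, Tnfrsf1b, Osmr, Il11ra1, Il15ra, Il17ra and Crlf2. Itgb3 was at 1.06 ± 0.158 CPM in WT, 1.19 ± 0.229 in KO E3 and 0.200 ± 0.0918 in KO E5. It fell by 2.40 ± 0.32 on the log2 scale in KO E5 (adjusted p = 0.000494). Tnfrsf1b rose by 1.765 ± 0.22 in KO E5 (adjusted p = 0.00026) and by 0.88 ± 0.23 in KO E3 (adjusted p = 0.014), the latter short of 2-fold. Osmr, the oncostatin M receptor, was at 1.01 ± 0.148 CPM in WT, 2.97 ± 0.889 in KO E3 and 0.474 ± 0.175 in KO E5, higher in KO E3 (adjusted p = 0.00244) and lower in KO E5 (adjusted p = 0.0419). The IL-11 receptor gene Il11ra1 fell by 1.03 ± 0.23 on the log2 scale in KO E5 (adjusted p = 0.0107), where Il11 also fell. Il11ra1 overlaps Ccl27a on the opposite strand, and whether reads were counted by strand is not given, so the 2 genes may share counts. Il15ra, the high-affinity IL-15 receptor chain, was at 2.45 ± 0.112 CPM in WT, 1.30 ± 0.155 in KO E3 and 3.37 ± 0.574 in KO E5. It fell by 0.92 ± 0.18 on the log2 scale in KO E3 (adjusted p = 0.00345), short of 2-fold, in the line where Il15 rose. Il15ra was called only between the clones, higher in KO E5 by 1.38 ± 0.18 (adjusted p = 0.000257). Il17ra was at 67.1 ± 5.70 CPM in WT, 30.9 ± 2.03 in KO E3 and 75.0 ± 2.97 in KO E5, and fell by 1.12 ± 0.10 in KO E3 (adjusted p = 3.83e-05). Crlf2 fell by 1.02 ± 0.18 on the log2 scale in KO E5 against WT (adjusted p = 0.00303). KO E5 lay below KO E3 for Crlf2 by 1.28 ± 0.18 (adjusted p = 0.000487), and KO E3 did not pass against WT (adjusted p = 0.279).

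Related ligands outside the symbol rule were tested for 10 of 20 genes, of which 1 was called in KO E3 and 2 in KO E5. Ptn, the heparin-binding growth factor pleiotrophin, was at 28.5 ± 0.709 CPM in WT, 50.7 ± 14.2 in KO E3 and 0.0411 ± 0.0218 in KO E5, and fell by 9.36 ± 0.34 on the log2 scale in KO E5 (adjusted p = 4.55e-08). Flt3l, the dendritic cell growth factor, fell by 1.04 ± 0.22 on the log2 scale in KO E5 (adjusted p = 0.00801). In KO E3 it fell by 0.65 ± 0.22 (adjusted p = 0.0457), short of 2-fold.

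Among 13 tested inhibitors and decay factors, Socs2 fell in both clones. This JAK-STAT feedback inhibitor was at 14.2 ± 0.499 CPM in WT, 1.06 ± 0.069 in KO E3 and 2.17 ± 1.34 in KO E5, with log2 fold changes of -3.75 ± 0.39 (adjusted p = 9.33e-05) and -2.70 ± 0.36 (adjusted p = 0.000434). Of 27 regulators, all tested, 3 fell in KO E3, and 1 rose and 3 fell in KO E5. Atf3, a stress-induced factor of the AP-1 and CRE-binding group, was at 44.2 ± 5.0 CPM in WT, 3.16 ± 0.981 in KO E3 and 10.6 ± 2.07 in KO E5, and Cebpd at 5.12 ± 0.432, 1.71 ± 0.596 and 1.98 ± 0.257. Both fell in both clones, Atf3 by 3.81 ± 0.24 and 2.06 ± 0.22 and Cebpd by 1.58 ± 0.23 and 1.37 ± 0.22 on the log2 scale. Nfkbiz, an NF-κB cofactor, fell by 1.09 ± 0.11 on the log2 scale in KO E3 (adjusted p = 6.25e-05). Its fall in KO E5 was 0.62 ± 0.10 (adjusted p = 0.00205), short of 2-fold. The NF-κB subunit gene Rel rose in KO E5 by 1.19 ± 0.29 on the log2 scale (adjusted p = 0.0159), while Nfkb1 and Rela passed in neither clone.

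**Figure D4:**
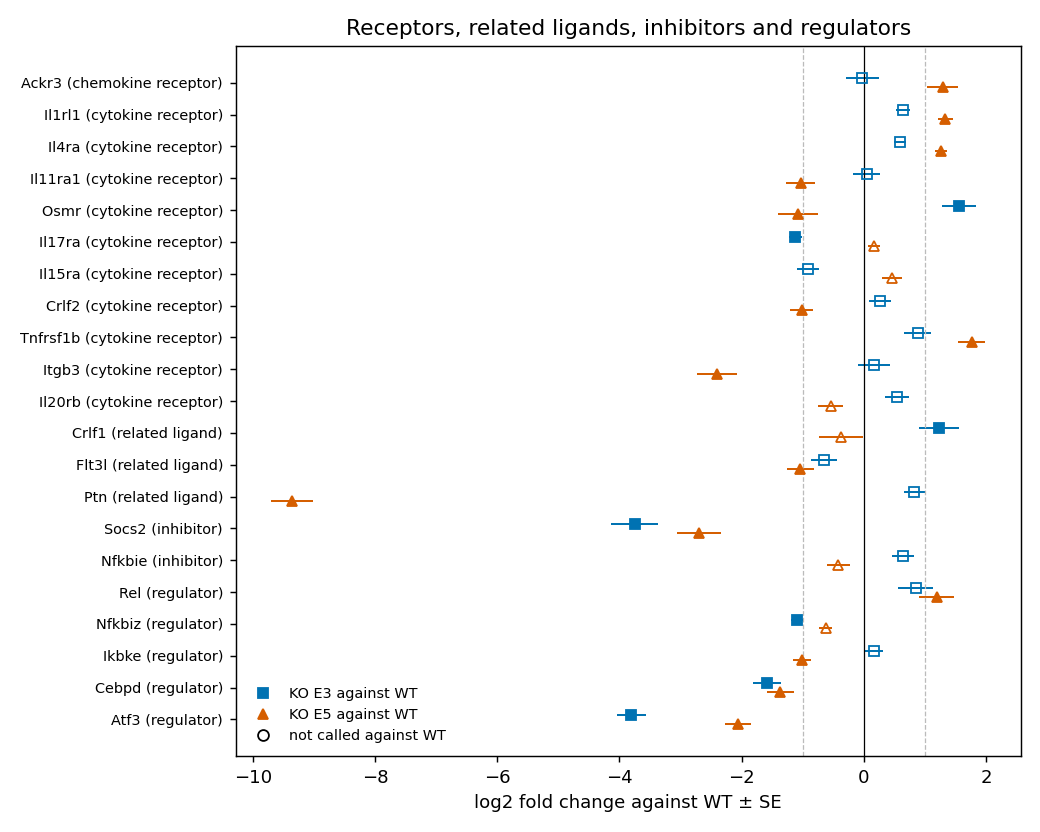
Log2 fold change with standard error of the listed receptors, related ligands, inhibitors and regulators that reached 1 CPM in a line and were called in at least 1 of the 3 comparisons, for KO E3 (squares) and KO E5 (triangles) against WT, filled where called against WT. Il13ra1, whose KO E5 libraries are at 0, is left out, Ptn reaches -9.36 in KO E5, and Socs2, Atf3 and Cebpd lie below 0 in both clones.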

How the data were processed

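RNA-seq was done on 9 libraries, 3 each of WT, KO E3 and KO E5. The authors deposited 1 table of raw counts per gene. The submitters' notes name FastQC, Trimmomatic, STAR and GRCm39, while the counting program, whether it used strand and the gene annotation are not given in the sources used here. No file holds the authors' fold changes. Genes were filtered with filterByExpr (at least 10 counts in enough libraries and 15 in total), scaled by TMM and tested with edgeR 4.0.16 (R 4.3.3, quasi-likelihood test) in 1 model of all 9 libraries. The p-values were adjusted by Benjamini-Hochberg over all 14593 genes tested, and called means an adjusted p under 0.05 with an absolute log2 fold change above 1. CPM use the TMM-scaled totals. The common biological coefficient of variation was 14.8%. With 44257404 to 55095219 counts per library, intervals and floors cover counting error only.

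The members and lists were chosen with earlier results of these data known. Members called in any comparison with at least 1 CPM in a line were named with full values, and other members by level, count or range. Listed pathway genes were named where called with at least 1 CPM, up to 8 per list. Il13ra1, Il15ra, Nfkb1, Rela, the low-count members described singly and the 4 promoters printed were chosen after their values were seen. Transcript lengths are from GENCODE M39, whose coordinates equalled the table's for 42 of 89 members. Promoter windows were found for 61 of the 89 members. The script was tested on simulated data: of 199 genes changed in KO E3 against WT among 14332 tested, 172 were called, with 2 false calls. Alternatives were DESeq2 1.42.0, DESeq2 size factors, upper-quartile scaling, no filter, 10 counts in every library, only the 2 lines compared, a replicate block, each library left out and no fold threshold.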

Additional observations from a re-analysis of the deposited data

Results flagged for a closer look

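In 6 members KO E5 was called lower in the direct test against KO E3. The log2 difference, KO E5 minus KO E3, was -7.30 for Ccl27a, whose fitted value depends on the prior count because KO E5 was at 0. It was -3.45 for Il15, -2.76 for Il16, -1.72 for Il33, -1.46 for Il11 and -1.06 for Cxcl16. Each was higher in all 3 KO E3 libraries than in all 3 KO E5 libraries. The limit set by the filter on low counts bears on Il15, Il16 and Ccl27a, which were at few counts in KO E5. The call of Cxcl16 was lost in a fit of the clones alone (adjusted p = 0.0868) and without most single libraries, as given above. No group had enough libraries for a test of single libraries that stand apart.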

How the results depend on the processing

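Under the alternatives, 217 of 235 values of the 16 called member changes kept their direction and call, 18 kept the direction alone and 0 reversed. The 235 values leave out alternatives in which the gene was no longer tested, so that no call could be made. Members called in KO E3 against WT numbered 8 with no filter on low counts, 1 with at least 10 counts in every library, 9 with no fold threshold and 4 to 6 when each library was left out, against 4. In KO E5 against WT they numbered 2 with at least 10 counts in every library and 4 to 6 with a library left out, against 6. In KO E5 against KO E3 they numbered 2 with at least 10 counts in every library, 3 with only the 2 clones in the fit, 10 with no fold threshold and 3 to 8 with a library left out (3 without KO E3 replicate 1), against 6. The stricter filter tests 15 members and removes genes that are low in 1 line. Pathway genes called, whose alternatives were chosen after seeing the data, numbered 28, 27 and 35 with no fold threshold, and 8 to 11, 11 to 17 and 14 to 17 with a library left out, against 9, 17 and 16. Only differences without a call changed sign: with upper-quartile scaling, which moved the median of all genes by 0.0772, -0.0138 and -0.0909 in these comparisons, Il18 in KO E3 was 0.0459, and Ccl2 and Ccl9 between the clones were -0.0462 and -0.0568. With a library left out the ranges were -0.12 to 0.05 for Il18, -0.12 to 0.29 for Ccl2, -0.14 to 0.25 for Ccl9, -0.11 to 0.19 for Ccl7 in KO E3, and -1.01 to 0.43 for Il15 and -0.21 to 0.12 for Lif in KO E5. Cxcl1 in KO E3 was -0.97 with upper-quartile scaling and so short of 2-fold. Same-numbered libraries had deviations correlated at -0.172 to 0.047, so no deviation shared by number was seen. Such values cannot show whether same-numbered libraries were prepared together. With the replicate block 4, 6 and 6 members and 9, 16 and 16 pathway genes were called. The counting limit leaves levels under about 3 counts per library unresolved, the strand setting is unknown for the 12 tested members with exons opposite another gene, and in each comparison of 1 clone with WT the edit and other differences between the lines cannot be told apart.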
